A study of Homo sapiens with 12 samples.

Results

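The resting chromatin landscape of parental MIAPaCa2 cells was read from 3 libraries of untreated cells, and its members were the genomic regions called open in 3 of 3 of them. Overlapping peaks of the 3 lists (1 bp or more, chromosomes 1 to 22 and X) merged into 95717 regions, of which 36057 (37.7%) held a peak of every library. Another 10413 regions held peaks of 2 libraries and 49247 held peaks of 1. Over all 12 libraries of the series the peaks merged into 178040 regions. MIAPaCa2 is an established human pancreatic ductal adenocarcinoma (PDAC) cell line, and all cells were cultured in serum-containing medium. The untreated parental cells had received vehicle, the treated parental cells had received oxamate, a pyruvate analog that inhibits lactate dehydrogenase, and the resistant cells were a population of the same line that had survived prolonged oxamate culture and was profiled without and with oxamate. Each of these 4 groups had 3 libraries. The sources used here do not say whether replicates were separate cultures, so p-values measure only the spread between these libraries, which may be technical. The resistant cells were polyclonal and derived from this one line.

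In ATAC-seq, the Tn5 transposase cuts and tags DNA that is not wrapped in nucleosomes or otherwise covered, so that tagged fragments pile up at active promoters, enhancers and insulators. Promoters rich in the dinucleotide CpG are open in most cell types, while those of genes used by 1 tissue are usually CpG-poor and open only there. Heterochromatin around centromeres and gene-poor stretches tied to the nuclear lamina give few fragments. A bulk profile cannot tell a site that is open in a few of the cells from a site that is weakly open in all of them.

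Promoter windows of 4 genes show what lay inside and outside the open regions. They were taken from RefSeq (GRCh38.p14) and run from 250 bases before an annotated start to 50 after it, in the direction of transcription. Capitals mark matches, on either strand, to 8 motifs, namely the TATA box (TATAAA), the CCAAT box (CCAAT), the GC box (GGGCGG), the cyclic AMP response element (TGACGTCA), the AP-1 site (TGANTCA), the E-box (CACGTG), the ETS core (CCGGAAG) and the core of the NRF1 site (GCGCATGC). The first window belongs to UMAD1 (chr7:7640502-7640801, plus strand) and lay in the best-ranked region that overlapped any promoter window. The JADE2 window (chr5:134526382-134526681, plus strand) lay in the widest such region, and of its 4 windows there it held the most motif matches. INS (chr11:2161160-2161459, minus strand), the insulin gene of pancreatic beta cells, and ALB (chr4:73404037-73404336, plus strand), the serum albumin gene of the liver, had no peak in any of the 3 libraries.
UMAD1: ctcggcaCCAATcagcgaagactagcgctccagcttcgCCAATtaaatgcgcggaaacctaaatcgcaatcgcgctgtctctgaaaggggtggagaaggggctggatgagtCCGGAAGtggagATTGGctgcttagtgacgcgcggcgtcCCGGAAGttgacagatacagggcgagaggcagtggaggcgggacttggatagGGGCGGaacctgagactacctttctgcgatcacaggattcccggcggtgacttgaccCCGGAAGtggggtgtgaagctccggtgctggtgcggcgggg
JADE2: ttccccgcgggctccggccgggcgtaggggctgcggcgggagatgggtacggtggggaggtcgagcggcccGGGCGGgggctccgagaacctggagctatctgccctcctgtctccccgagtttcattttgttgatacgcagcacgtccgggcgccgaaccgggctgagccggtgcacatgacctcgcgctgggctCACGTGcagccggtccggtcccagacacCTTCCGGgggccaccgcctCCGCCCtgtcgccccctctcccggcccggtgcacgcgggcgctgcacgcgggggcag
INS: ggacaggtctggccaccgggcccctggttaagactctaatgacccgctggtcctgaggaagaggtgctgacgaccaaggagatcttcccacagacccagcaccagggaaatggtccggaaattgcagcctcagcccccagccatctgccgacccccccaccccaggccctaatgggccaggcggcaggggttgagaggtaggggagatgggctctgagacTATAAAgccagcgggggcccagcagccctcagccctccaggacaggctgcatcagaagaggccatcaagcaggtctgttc
ALB: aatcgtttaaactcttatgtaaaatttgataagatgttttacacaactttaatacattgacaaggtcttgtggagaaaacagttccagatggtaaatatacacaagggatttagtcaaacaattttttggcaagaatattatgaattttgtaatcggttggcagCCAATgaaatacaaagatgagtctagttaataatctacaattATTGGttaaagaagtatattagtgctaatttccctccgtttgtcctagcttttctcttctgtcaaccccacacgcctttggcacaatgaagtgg
The UMAD1 window held 7 matches, among them 3 of CCGGAAG, the core bound by ETS factors, and 3 of CCAAT. The JADE2 window held 4, of which 2 were GGGCGG, the GC box bound by Sp1 and its relatives. The INS window had a single match, to TATAAA, and the ALB window had 2, both to CCAAT. GC content was 60.3% in the UMAD1 window, 73.7% in that of JADE2, 63.0% in that of INS and 33.3% in that of ALB. In the UMAD1 region (chr7:7640323-7641277, 955 bp) the fold over local background was 11.6, 11.8 and 11.3 in replicates 1 to 3, and it ranked 132, 141 and 264 in the 3 lists by -log10 q. The JADE2 region (chr5:134524250-134527773, 3524 bp) had folds of 4.57, 4.64 and 4.63. A match is a description of the letters and not of a bound factor.

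The 3 lists were alike in size but not in peak width. Replicates 1, 2 and 3 held 59845, 59982 and 61469 peaks, which covered 25.03, 25.49 and 20.70 Mb. Relative depth, the background pileup of fragments in a list divided by its smallest peak width, was highest in replicate 3. It was 1.77 there against 1.53 and 1.33, where the shallowest of the 12 libraries is 1. The pileup alone was 0.883, 0.778 and 0.892 in replicates 1, 2 and 3. The median peak of replicate 3 was 226 bp wide, against 289 and 298 bp, and its smallest peak 75 bp, against 86 and 87 bp. The part of depth and fragment length in peak width was not tested. The members took 61.3%, 61.1% and 61.6% of the peaks of replicates 1, 2 and 3 and 81.3%, 80.8% and 81.5% of the bases under peaks. Peaks outside the members were narrow in each list, with median widths of 162, 167 and 129 bp against 442, 456 and 336 bp inside.

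Most open regions were narrower than 1 kb, and those at gene ends were wider. The 36057 regions covered 24.5 Mb and had a median width of 560 bp. The middle 50% lay between 351 and 914 bp, 1% were narrower than 127 bp, and the widest reached 4821 bp. In 33841 of them (93.9%) each library had called a single peak. Bases under a peak in 3 of 3 libraries summed to 14.3 Mb, so the outer parts of many merged regions rested on 1 or 2 libraries.

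Of the regions, 11653 (32.3%, exact 95% binomial interval 31.8 to 32.8%) lay within 1 kb of an end of a protein-coding gene. After all genes were moved by 100 kb the same count was 2436 (6.76%). A further 3003 (8.33%) lay at an end of another gene, such as a long noncoding RNA or pseudogene, 10759 (29.8%) inside a protein-coding gene, 2090 (5.80%) inside another gene and 8552 (23.7%) between genes. Regions at protein-coding gene ends had a median width of 928 bp and a median fold of 6.17. Inside protein-coding genes the medians were 447 bp and 4.78, and between genes they were 439 bp and 4.84. The rule that a region needs a peak of each library selected against weak sites. Median folds were 3.27 in regions called in 1 library, 3.63 in those called in 2 and 5.17 in members. Of regions called in 1 library 5.97% lay at a protein-coding gene end, and of those called in 2, 9.45% did.

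**Figure D1:**
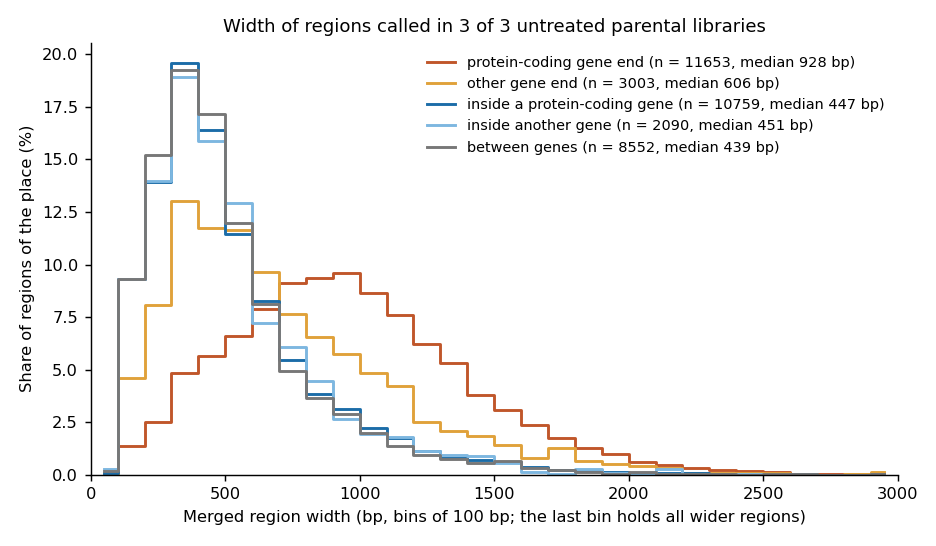
Share of regions (y axis, %) by merged width (x axis, bp, bins of 100 bp) for regions called in 3 of 3 untreated parental libraries, split by place. Regions at protein-coding gene ends had a median of 928 bp, and the 3 classes away from gene ends had medians of 439 to 451 bp.

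The 352 regions of at least 2 kb (0.976%) were found mainly at genes. Of these, 237 (67.3%) lay at a protein-coding gene end, 37 at the end of another gene, 36 inside a protein-coding gene and 34 between genes. Merged width depends on the spread of peak borders between lists, and only 34 regions had 2 kb under a peak in 3 of 3 libraries.

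The widest region of all covered the 3′ end of FOSB, which encodes a subunit of the AP-1 transcription factor that is induced within minutes of growth signals. It spanned 4821 bp (chr19:45471785-45476605), with 4568, 4124 and 3713 bp under peaks in replicates 1, 2 and 3, and its near edge lay 3789 bp from the 5′ end of the gene. Its folds were low, at 2.079, 1.996 and 2.101, against a median of 5.17 over all members. The second lay beside ACTB, the gene of cytoplasmic beta-actin, at chr7:5522998-5526953 (3956 bp). There too the folds were low and close together, at 2.59, 2.59 and 2.55. Both were wide members with low folds. At protein-coding gene ends, regions of at least 2 kb had a median fold of 4.82, against 6.17 for all regions there. The part of peak width in these folds was not tested.

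Other wide regions lay on promoters. Those at JADE2 (3524 bp), which encodes a subunit of a histone acetyltransferase complex, TRERF1 (3478 bp), a transcriptional regulator, and SOX12 (3322 bp), a SOX family transcription factor, each overlapped a promoter window. Folds at SOX12 (chr20:324235-327556) were 5.39, 6.20 and 5.31, and those at TRERF1 (chr6:42451303-42454780) were 4.40, 4.22 and 4.11. The remaining 5 of the 10 widest were not at a protein-coding gene end. One touched the pseudogene GUSBP18 inside the span of C1QTNF3 (chr5:34179184-34182958), and one lay 1728 bp from DUX4L20, a copy of the DUX4 repeat at the end of the long arm of chromosome 10 (chr10:133686920-133690399). A pair lay on the short arm of chromosome 21 (chr21:9006301-9009803 and chr21:8991336-8994717). The last lay 736108 bp from the nearest gene, EMB, at chr5:49656748-49660084. All 10 of them were called in 9 of 9 libraries of the other groups.

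Ranked by -log10 q, the 10 strongest members were narrow and stood away from protein-coding gene ends. The sources used here do not say whether regions known for artefactual signal were removed. The part of such regions and of peak width in these ranks was not tested. The 10 best were 105 to 452 bp wide, and none lay at a protein-coding gene end. Members as a whole went the other way. Their median percentile by -log10 q, highest for the strongest, was 83.0 at protein-coding gene ends. It was 61.9 inside protein-coding genes and 62.2 between genes. First by median rank was chr3:93470361-93470795, with folds of 27.4, 28.7 and 30.6, and its nearest annotated gene, the pseudogene RNU6-488P, was 372969 bp away. The next was chr11:90807881-90808146 in the noncoding gene DISC1FP1, with folds of 45.7, 47.1 and 52.7. Near gene ends stood chr17:22521367-22521479, 658 bp from MTCYBP13, a pseudogene copy of the mitochondrial cytochrome b gene, and chr14:20089217-20089344, 786 bp from the 5S ribosomal RNA pseudogene RNA5SP380. Only chr6:56755258-56755709 lay in a protein-coding gene, DST, with folds of 33.29, 35.05 and 40.58. Its peaks covered 452, 214 and 214 bp, while those of the other regions among the 10 differed by at most 2 bp between libraries.

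Not all of these strong regions were called in every library of the other groups. The region at chr13:86436046-86436150 had folds of 47.1, 48.0 and 54.6 and was called in 3 of 3 treated parental, 0 of 3 untreated resistant and 1 of 3 treated resistant libraries. The region at chr2:156728869-156729095 had folds of 41.7, 44.9 and 50.5 and was called in 2, 0 and 1 libraries of those groups. For chr2:129321195-129321464, with folds of 46.3, 45.3 and 50.3, the numbers were 3, 2 and 1. The other 7 comprised the chromosome 17 region, called in 7 of 9 other libraries, and 6 called in 9 of 9.

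Open regions followed the genes along the chromosomes. Chromosome 19, the most gene-dense, held 35.5 regions per Mb and chromosome 17 held 25.4, while chromosome 4 held 5.63 and X held 6.09. Relative to genes the spread was smaller, from 1.12 regions per protein-coding gene on X to 2.49 on chromosome 13. The 843 regions counted on chromosome 13 include 166 in chr13:17000001-18000000 and 78 in chr13:16000001-17000000, which no annotated gene touched. In windows of 1 Mb the median was 7 regions, 546 of 3043 windows had 0, and 470 windows (15.4%) held 50% of all regions. The number of regions and the number of protein-coding genes per window had a Spearman rho of 0.808, given without a test since both also follow base composition and mappable sequence. Among windows with a protein-coding gene the fullest, on chromosome 11 at 65 to 66 Mb (chr11:65000001-66000000), held 99 regions and 49 such genes, followed by one on chromosome 19 (chr19:1000001-2000000) with 84 regions and 38 genes.

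Fuller windows held no gene at all. The windows chr1:124000001-125000000, chr1:123000001-124000000 and chr13:17000001-18000000 held 210, 181 and 166 regions in sequence around a centromere, and no annotated gene of any kind touched them. These windows were singled out after their values were seen. In total 977 regions (2.71%) lay in 33 such gene-free windows, 485 of them on chromosome 1. They were narrow (median 305 bp), their median fold was 4.44, and 46.5% of them were called in 9 of 9 other libraries, against 67.9% of all members. Reads that mapped to several places had been removed by the authors before peak calling, and the part of repeated sequence in these regions was not tested. Without them chromosome 1 held 14.9 regions per Mb in place of 16.9, and 33.2% of the remaining regions lay at a protein-coding gene end.

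Most protein-coding genes had an open end in resting parental cells. Of 19974 such genes, 12044 had a region called in 3 of 3 libraries within 1 kb of an end, a share of 60.3% (exact 95% interval 59.6 to 61.0%). In 1491 genes (7.46%) both ends had one. At the other extreme, 6432 genes (32.2%) had no peak of any of the 3 libraries at an end, and 1498 (7.50%) had a peak of 1 or 2 libraries or peaks that shared no region. Per library, the number of genes with a peak at an end was 12720, 12828 and 12537 in replicates 1, 2 and 3 (12695 ± 147, SD, n = 3). Genes with an open end spanned a median of 28.9 kb. Genes without a peak at an end spanned a median of 16.5 kb, and 24.7% of these had a region further inside.

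The open end was mainly the 5′ end. For the 15812 genes whose strand the promoter table gives, 8268 had a region at the 5′ end alone, 416 at the 3′ end alone and 1224 at both. Chromosomes differed in the share of genes with an open end, from 66.0% on chromosome 17 and 65.8% on chromosome 14 to 44.4% on chromosome 21 and 42.5% on X.

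Promoters inside open regions were richer in CpG than promoters outside. The table held 22132 promoter windows of 15812 protein-coding genes, 79.2% of all, so the shares describe these windows and not every gene. Windows that overlapped a region called in 3 of 3 libraries numbered 11967, and their median GC content was 66.7%, against 54.3% in the 9368 windows without any peak. The ratio of observed to expected CpG had a median of 0.858 in the former and 0.333 in the latter, and the middle 50% ran from 0.741 to 0.963 and from 0.174 to 0.645. Of 13768 windows with a ratio of 0.6 or more, 78.0% overlapped a region, and of 8364 windows below it, 14.7% did. The 797 windows with a peak in 1 or 2 libraries lay between, with a median ratio of 0.620.

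**Figure D2:**
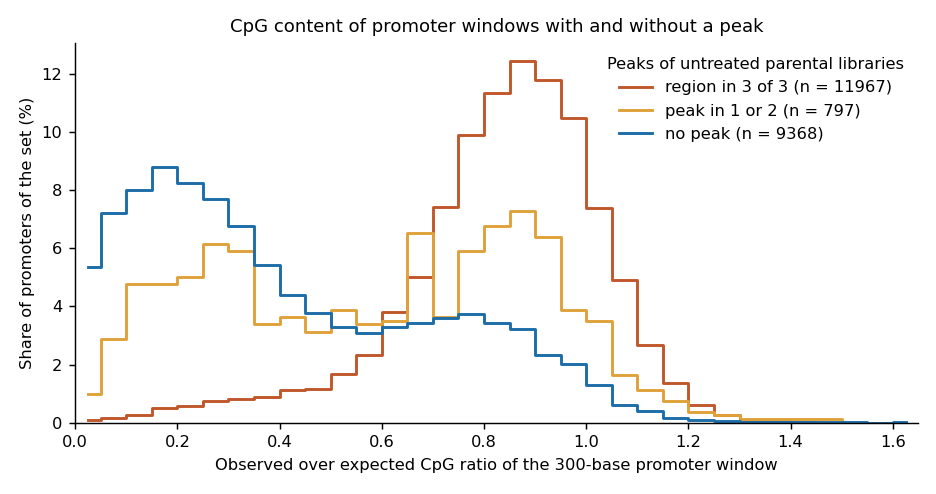
Share of promoter windows (y axis, %) by the ratio of observed to expected CpG (x axis) for 11967 windows that overlapped a region called in 3 of 3 untreated parental libraries, 797 with a peak in 1 or 2 and 9368 with none. The first curve peaks near its median of 0.858 and the last at low ratios, with a median of 0.333.

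Letters of known promoter motifs were unevenly spread. GGGCGG, the GC box, was found in 74.8% of the windows with a region, 32.7% of those without a peak and 56.3% of all windows. CCGGAAG, the ETS core, was found in 20.3%, 3.89% and 12.8%, and GCGCATGC, the core of the NRF1 site, in 5.81%, 1.28% and 3.74%. TGACGTCA, the full cyclic AMP response element, was found in 3.34%, 0.982% and 2.26%, and CACGTG, the E-box of MYC and its relatives, in 10.2%, 6.05% and 8.34%. The reverse held for TATAAA, the TATA box, with 4.42% of windows with a region, 16.1% without a peak and 9.46% of all, and for TGANTCA, the AP-1 site, with 4.16%, 8.68% and 6.15%. CCAAT was found in 35.9%, 33.6% and 34.6%. Both strands were searched, and both sets also differ in GC content, which by itself changes how often such letters occur.

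Genes that every cell needs had open ends almost without exception. All 20 genes of the core promoter machinery (RNA polymerase II subunits, general factors and Mediator) had a region, against 60.3% of all protein-coding genes. The best ranked was CCNH, the cyclin of the CDK-activating kinase, with folds of 10.6, 10.4 and 12.9, and the last was MED12, a Mediator subunit, with 7.68, 6.51 and 5.43. Cytosolic ribosomal proteins had a region at 82 of 85 genes, and the 3 without were RPL10L, RPL26L1 and RPL39L, copies of RPL10, RPL26 and RPL39. The last ranked of those with a region was RPL19, with folds of 4.67, 4.69 and 3.58.

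Mitochondrial ribosomal proteins followed with 74 of 77, where MRPL50 had folds of 12.4, 13.2 and 11.9 and MRPL23, MRPL24 and MRPL44 had no peak at an end. Proteasome subunits had 36 of 39, led by PSMD5 with 11.0, 12.2 and 11.0, and the exceptions were PSMA6, PSMA8, which serves the testis, and PSMB11, which serves the thymus. Translation initiation factors had 49 of 55. EIF3C and EIF3CL, without a peak, are near-identical copies, and the removal of reads with several matches leaves such pairs uncertain. The same holds for histone copies such as H3C14 and H3C15, which had no peak, while 52 of 69 replication-dependent histone genes had a region. Zinc finger (ZNF) genes had one at 387 of 517, led by ZNF787 with folds of 10.8, 13.3 and 13.1.

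The glycolytic pathway, which makes the pyruvate that lactate dehydrogenase turns into lactate, was open at 16 of 18 genes. SLC2A1, the main glucose transporter, ranked first with folds of 7.57, 8.58 and 8.93. LDHA, the target of the inhibitor, encodes a subunit of the enzyme that turns pyruvate into lactate. It had a region of 753 bp with folds of 5.08, 6.45 and 5.99, called in 9 of 9 other libraries. The widest of this group lay at TPI1 (2528 bp) and at GAPDH (2412 bp, folds of 4.42, 4.41 and 4.08). PFKP ranked last, with 4.21, 4.62 and 3.82. Both exceptions had no peak at an end in any of the 3 libraries: LDHB, the other main subunit of lactate dehydrogenase, which had a peak in 1 of 9 other libraries, and HK1, which had 2 regions inside its span.

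Genes known from the genetics of PDAC were open at 9 of 12, and the exact 95% interval of this share, 42.8 to 94.5%, holds the 60.3% of all genes. ATM, a kinase of the DNA damage response, ranked first with folds of 8.45, 10.1 and 10.0. SMAD4 (5.92, 5.45 and 4.61) and GATA6 (4.09, 5.32 and 4.28) were at the lower end of the group. No peak lay at an end of CDKN2A, KDM6A or TGFBR2 in any of the 3 libraries. TGFBR2 had one in 6 of 9 other libraries, and CDKN2A and KDM6A in 0 of 9.

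Markers of the tissue of the line were open in part. Ductal and epithelial genes had an open end at 9 of 20 (45.0%), against 60.3% of all protein-coding genes. Open were MUC1 (folds 6.43, 6.19 and 5.78), SOX9 (5.54, 5.48 and 7.56), ELF3, OVOL2 and the keratin genes KRT8, KRT18 and KRT19, of which the last had 3.75, 3.95 and 4.72. KRT8 and KRT18 counted through the same region of 768 bp. ESRP2 and CLDN4 counted through regions whose own peaks reached within 1 kb in 2 of 3 libraries. No peak of the 3 libraries lay at an end of CDH1, the gene of E-cadherin, or of GRHL2, ESRP1, OVOL1 or CFTR, and EPCAM, KRT7, CLDN7 and RAB25 had one in 1 library.

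Mesenchymal genes were open at 9 of 18. VIM, which encodes vimentin, led with folds of 5.02, 5.25 and 5.69 and a region of 1428 bp, and ZEB1, a repressor of CDH1, had 6.20, 5.83 and 4.79. AXL, SNAI1, TGFBI, S100A4, LOX and SNAI2 were open too. CDH2, PRRX1, SPARC, TWIST1, ZEB2 and CALD1 had no peak at an end in any of the 12 libraries. The exact 95% intervals of the ductal and mesenchymal shares, 23.1 to 68.5% and 26.0 to 74.0%, both hold the 60.3% of all genes.

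Genes of other cells of the pancreas were mostly closed. Acinar genes, which encode digestive enzymes and their regulators, had an open end at 2 of 22: SYCN, with folds of 5.11, 5.80 and 4.54, and CTRB1, with 2.92, 3.44 and 3.10. PTF1A and RBPJL, which direct the acinar program, had no peak at an end in the 3 libraries, and PTF1A had one in 2 of 9 others. CTRB2 had peaks at an end in 3 of 3 libraries that shared no region, and in 6 of 9 others. Of the 22 acinar genes, 10 had no peak at an end in any of the 12 libraries. Endocrine genes were open at 8 of 23, among them the transcription factor genes MAFA (6.68, 7.99 and 6.66), NKX6-1 (7.24, 7.42 and 7.89) and PDX1 (5.77, 8.40 and 5.35). Of the hormone genes, INS, GCG, GHRL and IAPP had no peak in any of the 12 libraries, SST had one in 1 of the 3 untreated parental libraries, and PPY had a region with folds of 6.22, 6.25 and 5.52.

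Markers of cells outside the pancreas were counted in the same way. Hepatocyte genes were open at 2 of 16, APOA1 and TF, and endothelial genes at 2 of 12, ESAM and ROBO4, which lie on the same chromosome. Blood cell genes were open at 4 of 22 (CD68, SPI1, CD8A and ITGAM), while PTPRC, the pan-leukocyte gene, CD3D, CD3E, CD3G and HBB had no peak in any of the 12 libraries. Neuronal genes were open at 6 of 16, with TUBB3, SYN1, MAP2, SNAP25, GRIN1 and SLC17A7 open and DCX, GAD2 and STMN2 without a peak. The exact 95% interval of the neuronal share, 15.2 to 64.6%, holds the 60.3% of all genes, while those of the hepatocyte (1.55 to 38.3%), endothelial (2.09 to 48.4%) and blood cell shares (5.19 to 40.3%) lie below it. An open end close to one of these genes may belong to a neighbour within 1 kb, since the rule asks for distance alone.

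Gene families of restricted use had few open ends next to the 60.3% of all protein-coding genes. Olfactory receptors had an open end at 10 of 392 (2.55%), the best ranked being OR2V2 with folds of 5.24, 6.37 and 7.37. Keratin-associated proteins had 1 of 94 (KRTAP5-5), beta-defensins 1 of 39 (DEFB135) and GABA-A receptor subunits 1 of 19 (GABRD). Bitter taste receptors had 0 of 25, late cornified envelope genes 0 of 19 and type I interferons 0 of 17, with exact upper limits of 13.7%, 17.6% and 19.5%. Of the 17 interferon genes, 16 lay in 1 stretch of chromosome 9 that had no peak in any of the 12 libraries, described below. They are 1 locus, where absent DNA cannot be told from closed chromatin. MAGE genes, many of which are active in the germ line alone, had 5 of 34, and those 5 were MAGEE1, MAGED2, MAGEH1, MAGED1 and MAGEF1.

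Families with roles in development and excitability were open at some of their members. HOX genes, which set position along the body axis, were open at 9 of 39, with HOXB9 (5.23, 4.68 and 4.91) and HOXA13 (4.84, 4.42 and 5.11, in a region of 2301 bp) ranked first. Clustered protocadherins were open at 25 of 53, a share whose exact 95% interval, 33.3 to 61.4%, holds the 60.3% of all genes, and were led by PCDHGC3 with folds of 8.22, 8.87 and 6.93. Potassium channel genes were open at 23 of 96, led by KCNAB2 with 10.1, 8.57 and 8.17. The exact 95% intervals of the HOX and potassium channel shares, 11.1 to 39.3% and 15.8 to 33.7%, lie below the 60.3%. Members of 1 cluster can share a region, so these counts are not of independent sites.

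**Figure D3:**
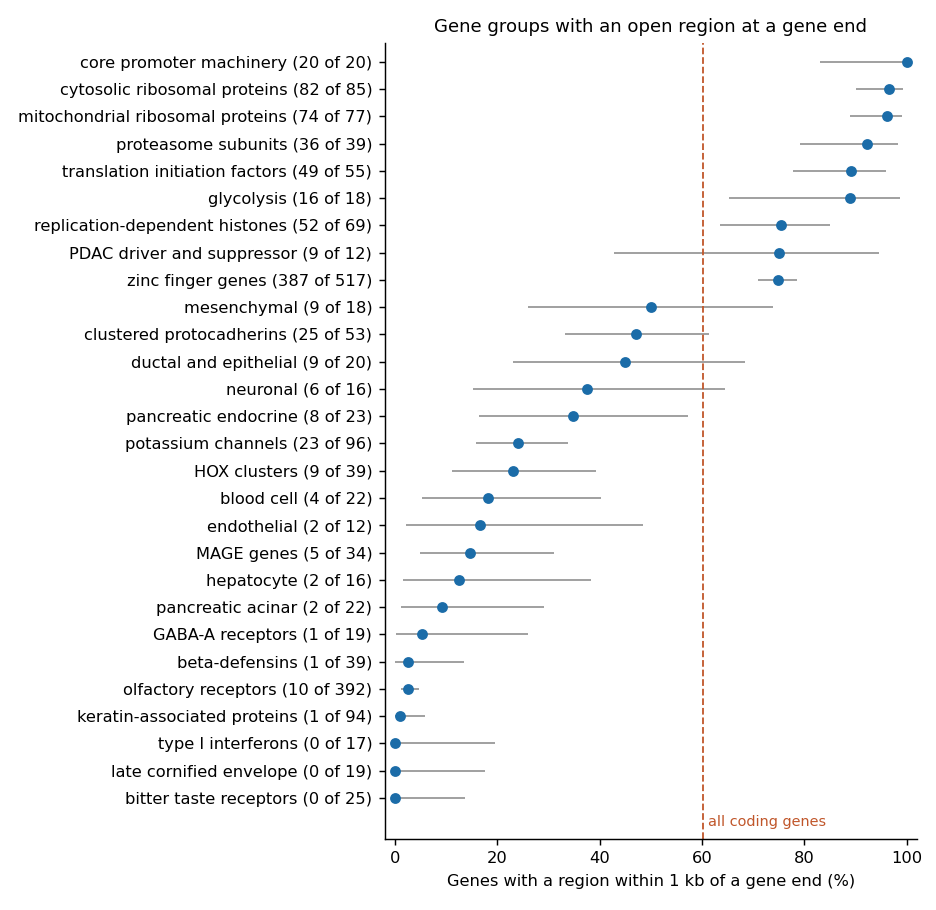
Share of genes with a region called in 3 of 3 untreated parental libraries within 1 kb of a gene end (x axis, %) in 28 gene groups (y axis, with counts). Points are shares, bars exact 95% binomial intervals and the dashed line the 60.3% of all protein-coding genes; ribosomal, proteasome, translation initiation and core promoter groups reach 89.1 to 100% and sensory and skin families lie below 3%.

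The 10 protein-coding genes with the most regions in their span held 18 to 29 each. CAMTA1, which encodes a calmodulin-binding transcription activator, held 29 regions in 984 kb, the most of any protein-coding gene, from 49, 42 and 46 peaks in replicates 1, 2 and 3. DST, which encodes the cytoskeletal linker dystonin, held 25 in 497 kb, as did GSE1, a subunit of corepressor complexes, in 507 kb. CUBN, the gene of the vitamin B12 receptor cubilin, held 23 in 306 kb, which was 7.52 per 100 kb against 1.19 over the chromosomes as a whole. The list went on with RAD51B (22, homologous recombination), PDE10A (20, a phosphodiesterase), BCAR3 (19, an adaptor of integrin signalling), GPHN (19, the scaffold gephyrin), MACF1 (19, a linker of actin and microtubules) and DLGAP1 (18, a synaptic scaffold).

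Length alone did not bring regions. Of the 69 genes of at least 1 Mb, 28 held 0 regions, among them CSMD1, which spans 2060 kb, CSMD3, CTNNA2 and DCC, and the median was 1. GPHN, with 19, held the most of these. Over all protein-coding genes the median was 1 region per span, 9098 genes held 0, 62 held 10 or more and 6 held 20 or more.

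Per unit of length, genes close to the minimum span of 20 kb set for this ranking led, with spans of 20.5 to 40.7 kb. Among genes of at least 20 kb with 5 or more regions, KDM6B, which encodes an H3K27 demethylase, was the densest, with 6 regions in 20.6 kb or 29.2 per 100 kb. MAP3K12, a kinase of stress signalling, had 6 regions (27.4 per 100 kb), STX1A, a syntaxin of vesicle release, had 5 (24.4) and ABCA7, a lipid transporter, had 6 (23.6). SQSTM1, the autophagy receptor p62, had 7 (22.1). NTMT1, KLF16, HOOK2, GYS1 and SAP30BP completed the 10, at 19.6 to 22.0 per 100 kb, and the median of all genes of at least 20 kb was 1.45.

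Stretches without any peak were long and gene-poor, with a few exceptions. Between neighbouring peaks of the 3 libraries there were 162 stretches of at least 1 Mb, 290 Mb in all, with a median of 1.34 Mb. Chromosome 4 had 23 of them, X had 22 (47.3 Mb) and 37 of the 162 reached 2 Mb. The 3 longest, chr1:125183126-143184625 (18.0 Mb), chr9:45473629-60525447 (15.1 Mb) and chr16:38263907-46389927 (8.13 Mb), flank centromeres and held no annotated gene. Such places hold sequence gaps of the assembly, where no read can map, so that the lack of a peak in the gaps was given beforehand. Outside the gaps reads can map, and 2, 7 and 3 of the 9 other libraries had peaks in these stretches, in the same order. Gaps were not removed from these counts, and without the 8 stretches that held no gene of any kind the total was 239.0 Mb. Then came chrX:143979704-147534279 (3.55 Mb), with the testis gene SPANXN1, SLITRK2 and 2 others, and chrX:87472886-90970237 (3.50 Mb), with KLHL4, CPXCR1 and TGIF2LX. In all, 83 stretches contained 263 protein-coding genes.

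One stretch stood apart by its gene content. It ran from chr9:20160827 to 23515828 (3.36 Mb) and contained 24 protein-coding genes, more than any other. Among them were MTAP, an enzyme of methionine salvage, CDKN2A and CDKN2B, which encode inhibitors of the G1 cyclin-dependent kinases, MLLT3, FOCAD, HACD4, KLHL9 and 16 of the 17 type I interferon genes. Not only the 3 untreated parental libraries but all 12 had 0 peaks in it. By contrast, 156 of the 162 stretches held a peak in at least 1 of the 9 other libraries. MIAPaCa2 is known for a homozygous deletion of CDKN2A. Peak lists cannot tell absent DNA from closed chromatin, and which of these applies was not tested.

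The flanks of this stretch were unlike each other. In the 3 Mb before it replicates 1, 2 and 3 had 22, 20 and 19 peaks, and in the 3 Mb after it 3, 2 and 2. Between chr9:24374390 and 26366177 (1.99 Mb), with the genes IZUMO3 and TUSC1, again no library of the 12 had a peak. Besides these, 4 further stretches were empty in all 12 libraries: chr14:16104507-18585085, chrX:112911503-114250216 and chr14:27009657-28217947, none with a protein-coding gene, and chr8:14724632-15892439, with TUSC3.

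**Figure D4:**
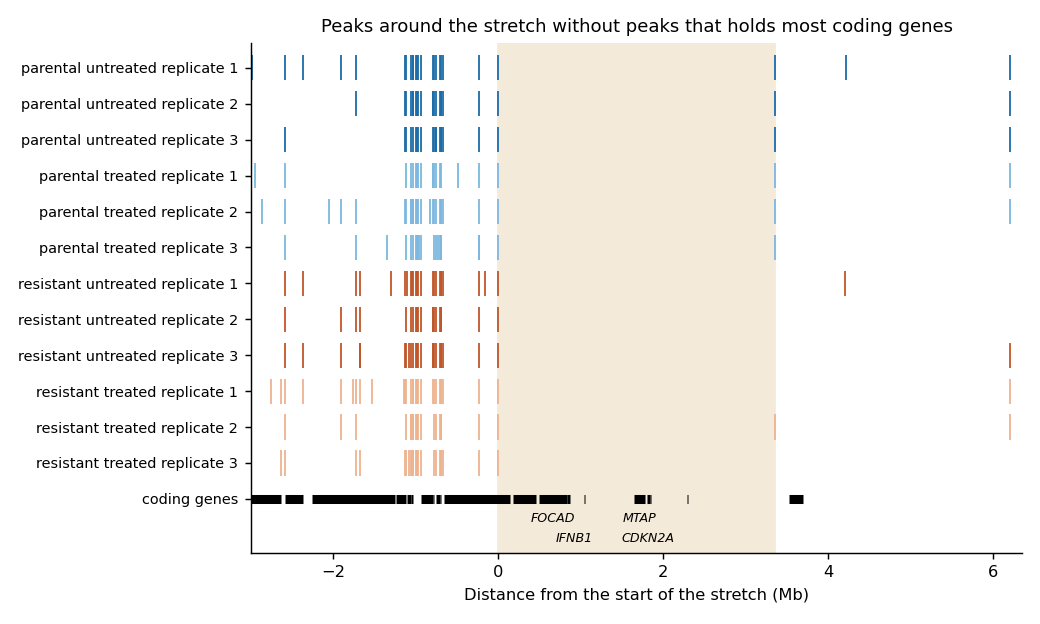
Peaks (vertical ticks) of the 12 libraries (rows) and spans of protein-coding genes (black bars) by distance from the start of the 3.36 Mb stretch on chromosome 9 (x axis, Mb, with 3 Mb on each side). The shaded stretch holds 24 protein-coding genes and 0 peaks in each library, while the untreated parental libraries have 19 to 22 peaks in the 3 Mb before it.

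The next stretches by gene content held clustered families. On chromosome 4, chr4:69573790-70601530 contained 19 genes, among them CSN1S1, CSN2 and CSN3, which encode milk caseins, and SULT1E1, STATH and MUC7. On X, chrX:120630510-123592551 contained 16, mostly copies of the cancer-testis gene CT47, which share sequence, together with GLUD2 and GRIA3. On chromosome 11, chr11:48173151-49995644 contained 13, among them 9 olfactory receptors and FOLH1. A group of 3 stretches with 10 genes each held SPANX and MAGEC genes (chrX:141002821-143520524), TYR, NOX4 and TRIM genes (chr11:89156503-90190004), and POTE and olfactory receptor copies (chr15:20570514-22221355). These had peaks in 3 to 9 of the 9 other libraries.

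Nearly all members recurred in the other groups. The rule had chosen them as called in 3 of 3 lists, so their recurrence is a description and not a test. Of regions called in 1 untreated parental library, 35.9% held a peak in any of the 9 other libraries and 0.0406% in all 9. For regions called in 2 these shares were 91.1% and 2.49%. Of the 36057 regions, 24489 (67.9%) held a peak in 9 of 9 other libraries and 77 (0.214%) in none. The 3 treated parental libraries all had a peak in 72.1% of the regions, the 3 untreated resistant libraries in 88.3% and the 3 treated resistant libraries in 87.7%. Treated parental libraries, the deepest on average, also had the narrowest peaks, and the part of this in the lower share was not tested. Members found in all 9 were wider (median 711 bp against 350 bp for those in 1 to 8) and lay more often at a protein-coding gene end (41.8% against 12.3%). A wider region is more easily met by a peak, and the part of width in this was not tested. For coding genes, 10988 had both a region at an end in the untreated parental libraries and a peak at an end in 9 of 9 others. No gene without a peak at an end in the 3 libraries had one in 9 of 9 others, and 5118 genes (25.6%) had none in any of the 12.

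Whole-library measures of untreated parental cells were set against each other group, with 12 exact permutation tests (both sides) (20 assignments each, smallest p 0.1) and Benjamini-Hochberg adjustment over them. None could pass 0.05 and none did. The number of protein-coding genes with a peak at an end was 12695 ± 147 (SD, n = 3), against 12003 ± 294 in treated parental cells, and the libraries did not overlap (exact permutation p = 0.1, adjusted p = 0.24). Against untreated resistant (12848 ± 188) and treated resistant cells (12756 ± 229) they overlapped (exact permutation p = 0.5 and 0.8, adjusted p = 0.667 and 0.873).

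Median peak width was 271 ± 39.2 bp in untreated parental cells. It was 374 ± 54.0 bp in untreated and 356 ± 33.7 bp in treated resistant cells, above every untreated parental library (exact permutation p = 0.1, adjusted p = 0.24 each), and 214 ± 12.9 bp in treated parental cells, which overlapped (exact permutation p = 0.2, adjusted p = 0.4). Peaks of at least 2 kb numbered 161, 155 and 54 in replicates 1, 2 and 3, above the 12 to 36 of treated parental cells and below the 258 to 720 of untreated resistant cells (exact permutation p = 0.1, adjusted p = 0.24 each), and overlapped the 111 to 447 of treated resistant cells (exact permutation p = 0.3, adjusted p = 0.45). The smallest peak had means of 73.0 bp (treated) and 82.7 bp (untreated) for parental libraries and of 109 bp (untreated) and 104 bp (treated) for resistant ones. Relative depth had means of 2.27, 1.55, 1.43 and 1.08 in the same order. It is divided by the smallest peak width, so these measures are not separate. The background pileup alone had means of 1.12, 0.851, 1.04 and 0.752 in that order. Width, fragment length and depth cannot be told apart in these lists.

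Stretches of at least 1 Mb without a peak numbered 321, 345 and 242 in replicates 1, 2 and 3, and overlapped those of every other group. The mean was 303 ± 53.9 against 246 ± 79.6 for parental cells given oxamate, 306 ± 38.8 for resistant cells without it and 327 ± 26.0 for resistant cells with it (exact permutation p = 0.3, 1 and 0.6, adjusted p = 0.45, 1 and 0.72).

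**Figure D5:**
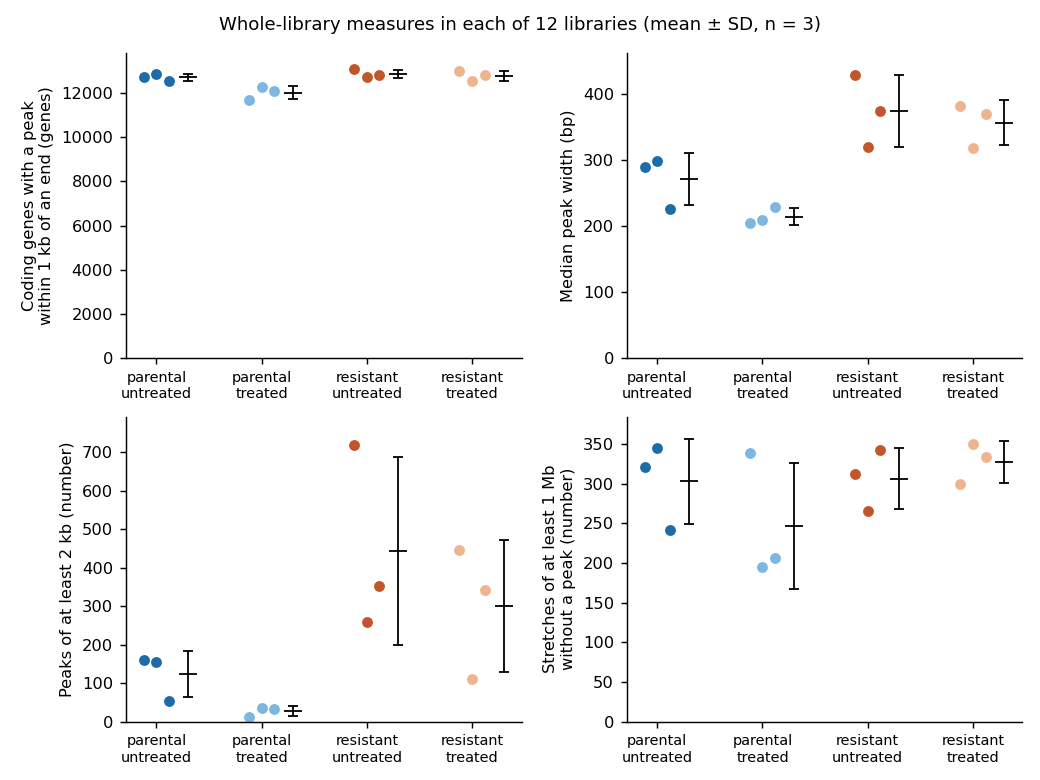
The 4 whole-library measures (y axes, each from 0) in the 12 libraries by group (x axes). Points are libraries and bars the mean ± SD (n = 3); the untreated parental median peak width lies between 226 and 298 bp, below the 318 to 428 bp of the resistant libraries.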

How the data were processed

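ATAC-seq peak lists of 12 libraries (4 groups of 3) were used. According to the study's methods and the labels, the authors aligned reads to hg38 with Bowtie2 2.1.0, discarded reads that were mitochondrial, duplicated or not uniquely placed, and ran MACS2 on each library for broad peaks; its version is not given in the sources used here. The deposited columns give each peak a score, a fold over local background and -log10 p and q values, and none gives read counts. Relative depth was derived from the steps of the fold and -log10 p values. Peaks overlapping by 1 bp or more on chromosomes 1 to 22 and X were merged, and a region was kept when each of the 3 untreated parental lists had a peak in it. Its fold in a library is that of its strongest peak, and ranks follow -log10 q, where 1 is the highest. Genes and promoters were taken from RefSeq GRCh38.p14 (59098 genes, 19974 of them protein-coding). A gene end counted as open when a region lay within 1 kb of it, and a region inside a gene by its midpoint. The 10 widest regions, the 10 best ranked, the 10 genes with most regions and the 10 densest were named. Exact binomial intervals (95%) treat regions and genes as independent, which neighbours are not. Members and gene lists were chosen with earlier results of these data known. Some listed genes are counted but not reported here by name. Scripts were tested on simulated data. Python 3.11.15, pandas 2.3.3, NumPy 2.4.6, SciPy 1.17.1 and matplotlib 3.10.9 were used.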

Additional observations from a re-analysis of the deposited data

Results flagged for a closer look

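Peaks also lay on contigs outside the assembled chromosomes, which entered none of the comparisons. Replicates 1, 2 and 3 of untreated parental cells had 427, 375 and 503 such peaks, on 65, 66 and 65 contigs, with highest folds of 28.1, 26.9 and 30.8. The other 9 libraries had 259 to 676. No control library exists for this measure, and the values are given without an explanation.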

How the results depend on the processing

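Of the alternative values for the descriptions, 24 stayed close to the reported one and 21 moved. Of those for the tests, 98 kept their direction and 10 reversed. No setting allowed a p under 0.05, so the side of that threshold was fixed in advance. With a minimum -log10 q of 3, 39.7% of regions lay at a protein-coding gene end, 399 stretches of at least 1 Mb were found, the most regions in a gene were 14 (MACF1), and the stretch differences (untreated parental minus other) became -91.7 from treated parental cells and 74.0 and 68.3 from resistant cells without and with oxamate. The gene differences grew there from 692, -153 and -60.7 to 1453, -595 and -560. With only the 29922 top-ranked peaks of each of the 3 lists, which held 59845 to 61469, the values were 23300 regions, 41.3%, 436 stretches and 14 (MACF1). The tests kept the 45748 top-ranked peaks of each of the 12 lists. There the stretch differences from untreated and treated resistant cells were 49.0 and 37.7 and the gene differences -274 and -241. The share at gene ends was 45.3% within 5 kb, 40.6% with all genes, 27.2% with 5′ ends only and 33.2% without windows that no gene touches, an alternative chosen after seeing the data. There were 34 regions of at least 2 kb by the width covered in 3 of 3 libraries and 17 of at least 3 kb. Stretches numbered 37 at a minimum of 2 Mb and 469 when judged by regions called in 3 of 3. The cause of these changes was not tested, apart from fewer peaks or another threshold by construction. Leaving out 1 untreated parental library gave 38596 to 40925 regions, shares of 29.7 to 30.7%, 218 to 309 regions of at least 2 kb (218 without replicate 1, 224 without replicate 2), 186 to 257 stretches (257 without replicate 3), 12080 to 12281 genes with an open end and 31 regions in CAMTA1. Leaving out 1 library of either group moved the gene difference over 532 to 821 from treated parental cells, over -234 to -50.0 from untreated resistant cells and over -181 to 46.5 from treated resistant cells (18.3 without untreated parental replicate 3, 46.5 without treated resistant replicate 1), the difference in peaks of at least 2 kb over 77.5 to 131, -414 to -183 and -272 to -104 from the same groups, the stretch difference from treated parental cells over 30.7 to 102.2, that from untreated resistant cells over -24.8 to 26.7 (26.7 without untreated parental replicate 3, 14.2 without untreated resistant replicate 3) and that from treated resistant cells over -45.8 to 5.67 (the last without untreated parental replicate 3). Replicate numbers did not pair the libraries: correlations of equal numbers ran from -0.0747 to 0.0161. With the replicate number as a block, the gene difference from treated parental cells was 692 (exact permutation p = 0.25, the smallest the block allows, adjusted p = 0.6), and no call changed. Without read counts, a missing peak cannot be told from one below the calling threshold.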
